A study of Homo sapiens with 20 samples.

Results

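The AP-1 FOS and JUN family comprised 7 genes, FOS, FOSB, FOSL1, FOSL2, JUN, JUNB and JUND, which were found by their symbols among the 20314 genes of the count table. All 7 passed the filter on low counts, as did 14992 genes of the table. RNA-seq had been performed on U2-OS cells, a human osteosarcoma line, with 5 libraries in each of 4 groups. The first group was untreated. Irradiated cells had received 20 Gy of ionizing radiation (IR) and were harvested at 90 minutes (1.5 h) or at 7 days post-IR. In the last group NFKBIA, which encodes the NF-κB inhibitor IκBα, was knocked down by shRNA, and the labels name no irradiation for these cells. All cells were grown in DMEM with 10 percent FCS. Per the study's own description, this knockdown used an shRNA induced by doxycycline in transduced cells selected as clones with puromycin, whereas the labels of the untreated libraries name no vector and no doxycycline. The methods name cells with a scrambled shRNA as controls, but none of the 20 libraries analysed here was so labelled, and the untreated libraries were used as the reference here. The comparison at 1.5 h concerned the first phase of NF-κB activation after DNA damage, that at 7 days the second phase in senescent cells, and the knockdown asked which genes change when IκBα is reduced without damage.

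AP-1 is a dimer of basic leucine zipper (bZIP) proteins. JUN proteins pair with each other or with FOS proteins, whereas FOS proteins need a JUN partner to bind DNA. FOS, FOSB, JUN and JUNB are classical immediate early genes, which are transcribed within minutes of growth factor or stress signals, and FOS and JUN are also subject to rapid mRNA decay. FOSL1 and FOSL2 encode FRA1 and FRA2, which lack the strong activation domain of FOS and FOSB and usually appear later. JUND is expressed in most resting cells, and JUNB and JUND often oppose the growth-promoting action of JUN. In bone, FOS and the FRA proteins take part in osteoblast and osteoclast development, and FOS overexpression gives rise to osteosarcoma in mice.

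Library totals ranged from 22535659 to 40390961 counts, and NFKBIA, the targeted gene, was at 23.5 to 42 CPM (counts scaled to a common library size) in the untreated libraries and at 11.2 to 13 CPM in the knockdown libraries. Of 8 osteoblast lineage markers, 6 passed the count filter; the summed level of all 8 was 3990 to 4730 CPM in untreated cells, 3670 to 3970 CPM at 1.5 h, 2690 to 3110 CPM at 7 days and 2790 to 2960 CPM in the knockdown, while SP7 and IBSP did not exceed 3 counts in any library. COL1A1, SPARC and RUNX2 made up most of this sum. The 6 markers of blood, endothelial and epithelial cells summed to 5.73 to 7.66 CPM in untreated cells, 5.6 to 7.49 CPM at 1.5 h, 4.17 to 4.69 CPM at 7 days and 3.34 to 4.25 CPM in the knockdown; the highest sums of both marker lists were those of untreated replicate 5. By the rule for calls given below, 0, 1 and 0 osteoblast markers were higher and 1, 1 and 2 lower at 1.5 h, at 7 days and in the knockdown, and of 3 tested markers of other cells 0, 2 and 2 were lower (edgeR; DESeq2 gave the same counts). Of all genes tested, 2.08%, 16.7% and 5.18% were higher and 1.57%, 14.4% and 7.53% lower, and with so few markers these counts are not read further. At 1.5 h none of these 3 had an unadjusted p under 0.05. Without untreated replicate 5, which is described next, no osteoblast marker was called at 1.5 h, where RUNX2 went from -0.56 to -0.26 on the log2 scale, and PTPRC, a leukocyte marker, became a call at 7 days (0.54). The part of cell make-up in the results was not tested. Untreated replicate 5 stood apart. It had the lowest total, the lowest mean correlation of log2 CPM with its own group (0.977, against 0.9854 or more for every other library) and the highest NFKBIA level of its group (42 CPM). It was also the only untreated library whose description names lane 3, the lane of 3 of the 1.5 h libraries, while untreated replicates 1 to 4 came from lane 2. The knockdown shared no lane with any untreated library, and neither did the 7 days group, so no value within a lane could be had for these 2 comparisons. The part of the lane was not tested, and calls that changed without untreated replicate 5 are pointed out below.

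The stretches of DNA just before the transcription start sites are shown for the members that rose together at 1.5 h (FOS, FOSB, JUN and JUNB) and, for comparison, for JUND and FOSL2. RefSeq promoter sequence (assembly GRCh38.p14) was found for 6 of the 7 members; FOSL1 had none in the table used. Each line holds the 120 bases that end at the base before the start site, read 5′ to 3′ on the gene's strand. Capitals mark matches to TGACGT (the core of the cAMP response element, bound by CREB, ATF and some AP-1 dimers), to TGACATCA (a relative of the AP-1 site known from the JUN promoter), to the TATA box TATAAA, on the gene strand only, and to the CCAAT box, whose letters are its name.
FOS, chr14:75278708-75278827, plus strand: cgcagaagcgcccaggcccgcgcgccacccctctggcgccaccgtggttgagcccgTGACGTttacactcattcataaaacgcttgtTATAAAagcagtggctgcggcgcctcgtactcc
FOSB, chr19:45467876-45467995, plus strand: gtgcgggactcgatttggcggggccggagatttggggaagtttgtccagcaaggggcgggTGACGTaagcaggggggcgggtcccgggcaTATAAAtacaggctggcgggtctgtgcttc
JUN, chr1:58784048-58784167, minus strand: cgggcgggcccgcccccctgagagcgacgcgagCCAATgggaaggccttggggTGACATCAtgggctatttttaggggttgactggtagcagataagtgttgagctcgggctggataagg
JUNB, chr19:12791366-12791485, plus strand: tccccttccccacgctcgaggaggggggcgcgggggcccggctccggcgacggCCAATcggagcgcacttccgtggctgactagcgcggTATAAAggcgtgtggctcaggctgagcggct
JUND, chr19:18281623-18281742, minus strand: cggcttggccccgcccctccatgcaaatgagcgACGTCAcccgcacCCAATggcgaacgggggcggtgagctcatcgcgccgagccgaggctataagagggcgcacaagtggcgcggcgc
FOSL2, chr2:28392738-28392857, plus strand: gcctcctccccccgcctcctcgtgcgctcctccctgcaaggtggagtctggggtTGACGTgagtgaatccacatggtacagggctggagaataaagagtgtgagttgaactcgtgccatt

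TGACGT began 64 bases before the start site of FOS, 60 before that of FOSB and 66 before that of FOSL2, and on the opposite strand it lay at positions -87 to -82 of JUND, where it reads as ACGTCA above. A further, complete TGACGTCA lay at -200 to -193 of JUND, upstream of the stretch printed. JUN held TGACATCA at -67 to -60. TATAAA was found at -33 of FOS, -30 of FOSB and -31 of JUNB, and CCAAT at -87 of JUN, -67 of JUNB and -74 of JUND. The canonical AP-1 site TGANTCA, whose reverse complement is of the same form, was found only in FOSL2, at 5 to 11 bases after the start site. Neither a CArG box, the element bound by SRF, nor a κB site was matched in these 6 windows. The windows reach only 250 bases upstream of the start site. Sites farther upstream were not searched, so these genes may still hold such elements there. Among 35116 RefSeq promoter windows of the same 300 bases, searched on both strands except for the TATA box, the core TGACGT was present in 7.98%, TGACGTCA in 1.85%, TGACATCA in 2.61%, TGANTCA in 7.71%, TATAAA in 7.33%, CCAAT in 34.6%, the CArG box in 1.29% and the κB site in 11.3%. TGACGTCA contains TGACGT, so these 2 searches overlap. These matches describe the sequence and do not show binding.

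At 1.5 h post-IR, 4 of the 7 members were higher than in untreated cells and none was lower. FOSB and JUNB rose most, by log2 fold changes of 1.97 ± 0.23 (SE) and 1.14 ± 0.085, followed by FOS (0.61 ± 0.062) and JUN (0.61 ± 0.047). A gene was called higher or lower at an adjusted p under 0.05 and a log2 fold change above 0.5 in size (edgeR quasi-likelihood test, adjusted over all genes tested). By this rule 2.08% of all genes tested were higher and 1.57% lower. An adjusted p under 0.05 at any fold change was reached by 5 members and by 21.3% of all genes tested, and the libraries of both groups did not overlap in CPM for 4 members and for 12.3% of all genes tested. The median log2 fold change was 0.61 over the members and -0.03 over all genes tested.

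**Figure D1:**
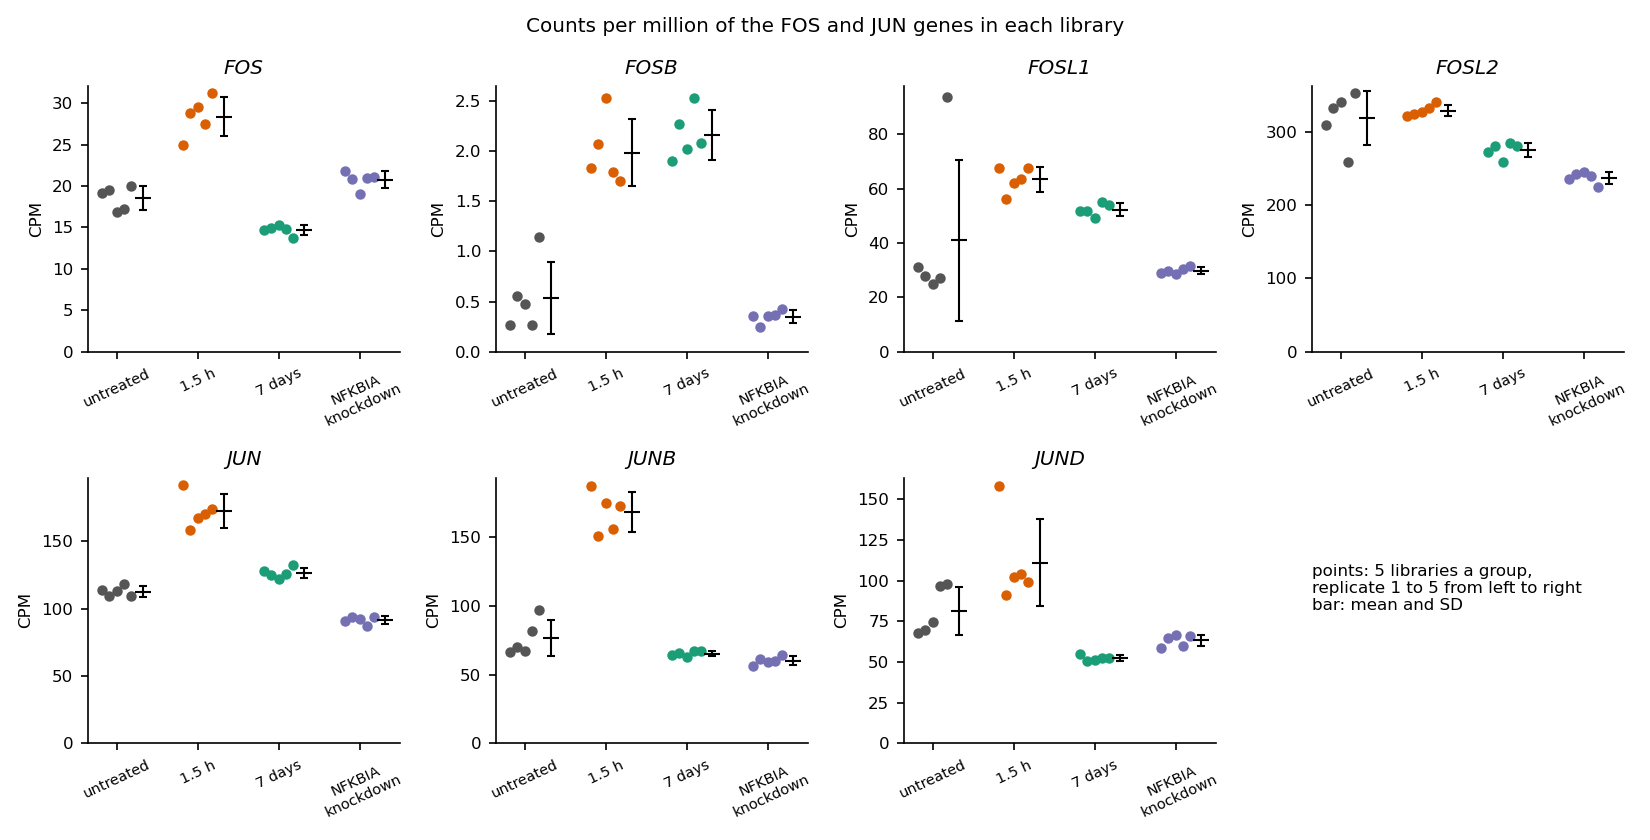
Levels in CPM (y axis, from 0) of each of the 7 genes in the 20 libraries, grouped on the x axis, with points for libraries and bars for mean and SD (n = 5). The 1.5 h libraries of FOS, JUN and JUNB lie above all libraries of the other 3 groups, and untreated replicate 5 lies far above the rest of its group for FOSL1 (93.7 CPM).

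FOS, the founding member, was read at 19.2, 19.5, 16.9, 17.2 and 20 CPM in untreated replicates 1 to 5 and at 24.9, 28.8, 29.5, 27.5 and 31.2 CPM at 1.5 h. All 1.5 h libraries exceeded all untreated libraries, and the group means were 18.6 ± 1.39 (SD, n = 5) and 28.4 ± 2.35 CPM (adjusted p = 3.8e-07, edgeR). Per base of gene length FOS was the weakest member after FOSB, at 8.76 ± 0.725 RPKM (reads scaled by gene length and library size) even at 1.5 h. FOSB, whose protein also has a strong activation domain, was the least abundant member in each group. Its untreated libraries held 9, 20, 19, 8 and 24 counts (0.267, 0.553, 0.475, 0.264 and 1.14 CPM), and those at 1.5 h held 72, 72, 90, 61 and 60 counts (1.83, 2.07, 2.53, 1.79 and 1.7 CPM). The groups did not overlap (adjusted p = 3.32e-06, edgeR). With so few counts the size of the change is less certain than for the other members: the highest untreated value, 1.14 CPM in replicate 5, was 4.33 times the lowest, and the log2 fold change was 2.3 without that library.

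JUN, which can pair with itself as well as with FOS proteins, was at 114, 109, 113, 118 and 109 CPM in untreated cells, the tightest untreated group of the family (coefficient of variation 3.42%). At 1.5 h it was at 192, 158, 167, 170 and 174 CPM, so that the lowest irradiated library lay well above the highest untreated one (adjusted p = 7.44e-09, edgeR). JUNB was at 66.4, 70.2, 67.1, 81.5 and 97.2 CPM before and at 187, 151, 175, 156 and 173 CPM after IR. This was the largest rise among the abundant members, 2.21-fold by the fit (adjusted p = 3.59e-09, edgeR). In the GENCODE annotation, 259 exon bases of JUNB overlap HOOK2 on the opposite strand. HOOK2 itself was at 20.8 ± 1.77 CPM in untreated cells and 18.8 ± 1.98 CPM at 1.5 h (log2 fold change -0.15 ± 0.075, adjusted p = 0.162, edgeR). The strand setting of the counting is not given in the sources used here, so reads of this stretch may belong to either gene.

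The other 3 members were not called at 1.5 h. JUND was at 67.8, 69.5, 74.4, 96.7 and 98 CPM in untreated cells and at 158, 91.2, 102, 104 and 99.3 CPM at 1.5 h. The groups overlapped, since 1.5 h replicate 2 lay below untreated replicates 4 and 5, and the log2 fold change was 0.45 ± 0.12 (adjusted p = 0.0126, edgeR), below the fold limit. It was 0.30 without 1.5 h replicate 1 and 0.65 without untreated replicates 4 and 5. Leaving out untreated replicate 4 (0.51), untreated replicate 5 (0.52) or 1.5 h replicate 2 (0.52) alone made it a call. FOSL1 was at 31.2, 27.8, 25.1 and 27 CPM in untreated replicates 1 to 4, at 93.7 CPM in replicate 5, and at 67.7, 56.3, 62.2, 63.6 and 67.6 CPM at 1.5 h. Replicate 5 thus lay above every irradiated library, and the log2 fold change was 0.65 ± 0.25 with adjusted p = 0.0668 (edgeR). Without it the value was 1.19 with adjusted p = 4.89e-12, a call. FOSL2, the member with the most reads, ranged from 259 to 353 CPM in untreated cells and from 321 to 340 CPM at 1.5 h, a log2 fold change of 0.05 ± 0.061 (adjusted p = 0.657, edgeR).

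**Figure D2:**
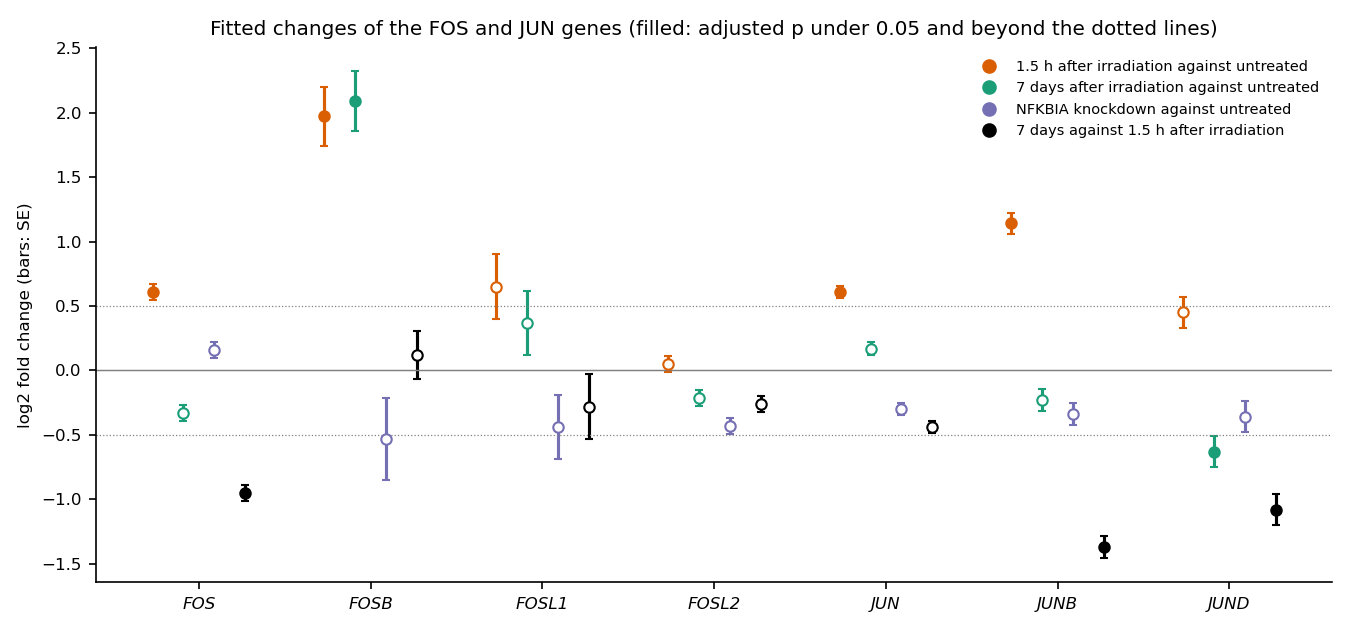
Fitted log2 fold changes (y axis, bars are SE) of the 7 genes in 4 comparisons, with filled symbols for calls and dotted lines at 0.5 and -0.5. FOSB is up by 1.97 at 1.5 h and 2.09 at 7 days, while JUNB is up by 1.14 at 1.5 h and at -0.23 at 7 days.

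**Figure D3:**
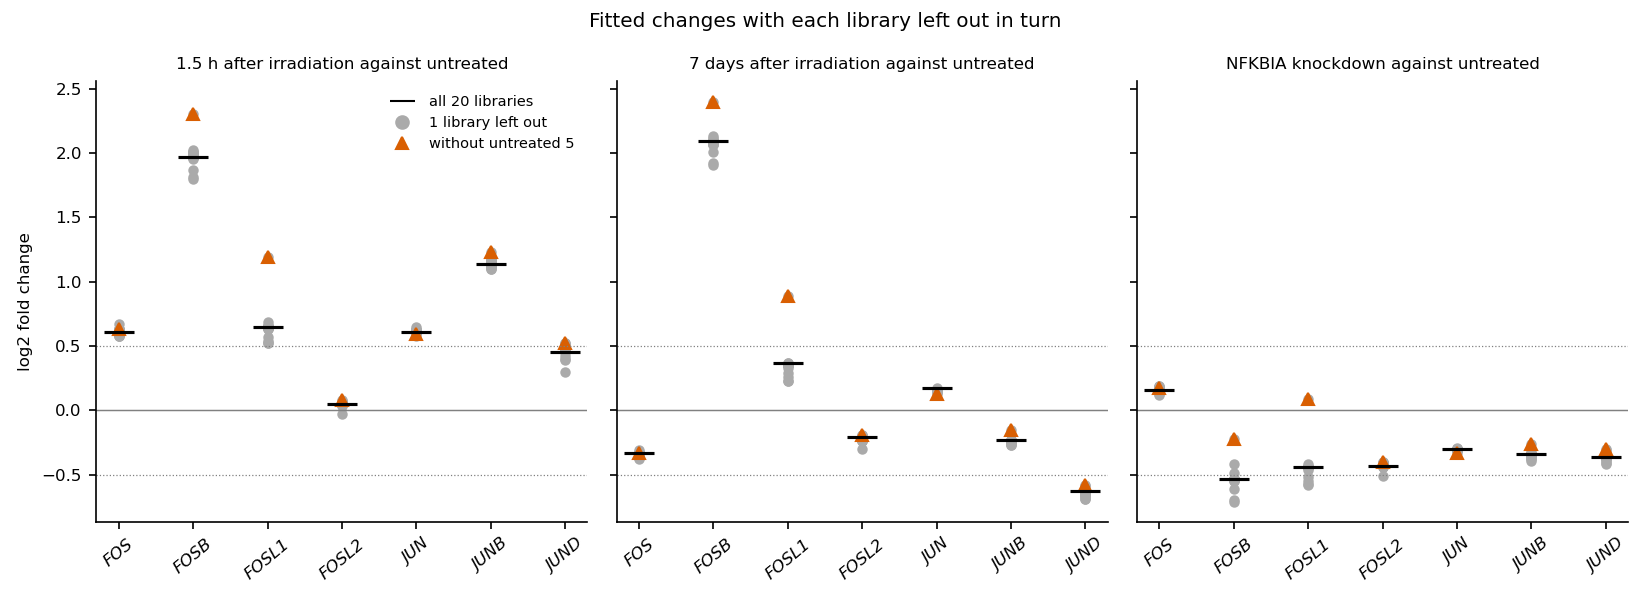
Log2 fold changes (y axis) of the 7 genes in the 3 comparisons with untreated cells, with all 20 libraries (black bars), with each library left out in turn (grey) and without untreated replicate 5 (orange triangles). FOSL1 moves from 0.65 to 1.19 at 1.5 h and from 0.37 to 0.89 at 7 days when untreated replicate 5 is left out, more than any other member in these comparisons.

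Lane 3 held 3 of the 1.5 h libraries and, of the untreated ones, only replicate 5. The values within this lane therefore compare 3 libraries with the single one that stood apart, which was assumed to vary like the others, and the spread came from other libraries only. They were 0.65 for JUN, 0.81 for JUNB, 0.90 for FOSB, 0.47 for FOS, 0.26 for JUND, -0.12 for FOSL2 and -0.59 for FOSL1 on the log2 scale. FOSB was thus at 0.90 against 1.97 with all libraries and FOS below the fold limit, while FOSL1, at 93.7 CPM in the untreated library, passed the limits in the opposite direction (adjusted p = 0.000156, edgeR).

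At 7 days post-IR the family did not stand as a whole above or below untreated cells. FOSB was higher by a log2 fold change of 2.09 ± 0.23 (adjusted p = 1.13e-07, edgeR) and JUND was lower by -0.63 ± 0.12 (adjusted p = 0.00015, edgeR), so that 1 member was higher and 1 lower, among 16.7% and 14.4% of all genes tested. At any fold change, 6 members and 64.2% of all genes tested had an adjusted p under 0.05. Libraries of the groups did not overlap for 4 members and for 44.8% of all genes tested. The median log2 fold change was -0.21 over the members and 0.01 over all genes tested.

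The 5 FOSB libraries at 7 days held 65, 69, 70, 83 and 58 counts (1.9, 2.27, 2.02, 2.53 and 2.08 CPM). They overlapped with those at 1.5 h, from which the fitted difference was 0.12 ± 0.19 on the log2 scale (adjusted p = 0.595, edgeR). Against untreated cells the value was 2.4 without untreated replicate 5. It was 1.16 with lane as a factor, a fit that reaches untreated cells through that library alone. JUND, which is known to restrain proliferation in several cell types, was at 54.9, 50.7, 51.2, 52.5 and 52.4 CPM at 7 days, below every other library of the series. Without untreated replicates 4 and 5, which had the highest untreated levels, the log2 fold change was -0.45 (adjusted p = 0.00109, edgeR), under the fold limit.

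FOS, FOSL2, JUN and JUNB passed the adjusted p at 7 days with changes below the fold limit. FOS was at 14.7, 14.9, 15.3, 14.8 and 13.7 CPM, all below the untreated libraries, with a log2 fold change of -0.33 ± 0.064 (adjusted p = 0.000111, edgeR). JUN ranged from 122 to 132 CPM, all above the untreated libraries, with a log2 fold change of 0.17 ± 0.047 (adjusted p = 0.00448, edgeR). JUNB (62.7 to 67.2 CPM, log2 fold change -0.23 ± 0.085) and FOSL2 (259 to 284 CPM, -0.21 ± 0.062) overlapped with untreated cells. The JUNB value was -0.15 without untreated replicate 5 (adjusted p = 0.0464, edgeR) and -0.08 without untreated replicates 4 and 5 (adjusted p = 0.225, edgeR). FOSL1 was at 51.7, 51.9, 49.1, 55.1 and 53.9 CPM. These values lay above untreated replicates 1 to 4 and below replicate 5, and the log2 fold change of 0.37 ± 0.25 (adjusted p = 0.199, edgeR) became 0.89 (adjusted p = 2.93e-11, edgeR) without that library.

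Set against the 1.5 h libraries directly, FOS, JUNB and JUND were lower at 7 days, with log2 fold changes of -0.95 ± 0.063, -1.37 ± 0.085 and -1.08 ± 0.12. No member was higher. Of all genes tested, 12.6% were lower and 16.8% higher in this comparison. The adjusted p values were 3.91e-11 for FOS, 1.54e-11 for JUNB and 1.76e-07 for JUND (edgeR). JUN was at -0.44 ± 0.047 (adjusted p = 5.82e-08, edgeR), short of the fold limit, with no overlap between the groups. At any fold change 5 members and 60.9% of all genes tested passed the adjusted p, and 6 members and 61.8% of all genes tested did not overlap; the exception was FOSB. Lane 4 held 2 libraries of each time point, and within it FOS was at -0.98, JUNB at -1.34 and JUND at -0.94, each a call. The 1.5 h and 7 days comparisons with untreated cells share the same 5 untreated libraries. In the present one these libraries enter no mean but do enter the estimate of the spread: FOSL1 was at -0.28 ± 0.25 (adjusted p = 0.339, edgeR) with all libraries and at -0.29 ± 0.055 (adjusted p = 7.49e-05) without untreated replicate 5, so that 6 members then passed the adjusted p. Leaving out any 1 of the 20 libraries left 3 members called.

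With NFKBIA knocked down and no irradiation, none of the 7 members was called, in edgeR or in DESeq2. At an unadjusted p under 0.05, 5 members passed in both tools, as did 48.6% of all genes tested in edgeR. By the same rule 5.18% of all genes tested were higher and 7.53% lower. At any fold change 5 members and 40.5% of all genes tested had an adjusted p under 0.05, and the groups did not overlap for 4 members and for 24.1% of all genes tested. The median log2 fold change was -0.36 over the members and -0.01 over all genes tested.

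The 4 members without overlap all lay below the untreated libraries. FOSL2 was at 225 to 245 CPM against 259 to 353 CPM, a log2 fold change of -0.43 ± 0.062 (adjusted p = 1.28e-05, edgeR), and was called without untreated replicate 4 (-0.51). JUN was at 90.4, 93.6, 92.4, 86.9 and 93.5 CPM, a log2 fold change of -0.30 ± 0.047 (adjusted p = 3.15e-05, edgeR). JUNB was at 56.1, 61.1, 59.1, 60.2 and 64.5 CPM (-0.34 ± 0.085, adjusted p = 0.00281, edgeR) and JUND at 58.6, 64.7, 66.5, 60 and 66.1 CPM (-0.36 ± 0.12, adjusted p = 0.0241, edgeR). JUND did not pass the adjusted p without untreated replicate 4 (-0.31, adjusted p = 0.0531, edgeR) or without untreated replicates 4 and 5 (-0.18, adjusted p = 0.204, edgeR). Leaving out 1 library gave adjusted p values of up to 0.0571 (edgeR) for JUND. With lane as a factor JUN (-0.28) and JUND (-0.52) did not pass the adjusted p, while FOSL2 (-0.63) and JUNB (-0.76) did. FOS stood on the other side of 0, at 21.8, 20.8, 19.1, 21 and 21.1 CPM with a log2 fold change of 0.16 ± 0.063 (adjusted p = 0.0435, edgeR), and overlapped with untreated cells. It did not pass the adjusted p without untreated replicate 4 (0.12, adjusted p = 0.148, edgeR). FOSL1 was at 29, 29.6, 28.5, 30.6 and 31.7 CPM, close to untreated replicates 1 to 4. Its log2 fold change of -0.44 ± 0.25 (adjusted p = 0.173, edgeR) rested on untreated replicate 5 and was 0.09 without it. A fit that included the lane gave -1.79, but links untreated cells to the rest by that library alone and the knockdown by its replicate 1 alone. FOSB held 12, 8, 12, 10 and 12 counts, with a log2 fold change of -0.53 ± 0.32 (adjusted p = 0.195, edgeR), which was -0.22 (adjusted p = 0.536) without untreated replicate 5.

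Between the 7 days and knockdown libraries, FOSB (log2 fold change 2.62 ± 0.25, adjusted p = 1.42e-08, edgeR) and FOSL1 (0.81 ± 0.25, adjusted p = 0.00904, edgeR) were higher at 7 days, and no member was called lower. Of all genes tested, 15.8% were higher and 9.89% lower. No library of FOSL1 at 7 days (49.1 to 55.1 CPM) overlapped with the knockdown (28.5 to 31.7 CPM), and neither mean contains untreated replicate 5, although that library entered the estimate of the spread.

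The order of the levels differed from member to member. JUN was highest at 1.5 h (172 ± 12.5 CPM), then at 7 days (127 ± 3.6), in untreated cells (113 ± 3.86) and in the knockdown (91.3 ± 2.78), with no overlap between any 2 neighbours (exact two-sided permutation test of log2 CPM, p = 0.00794 each, the smallest possible with 5 against 5). FOS ran from 1.5 h (28.4 ± 2.35 CPM) to the knockdown (20.8 ± 1.01), untreated cells (18.6 ± 1.39) and 7 days (14.7 ± 0.595). Knockdown and untreated libraries of FOS overlapped (exact permutation p = 0.0317). FOSB formed an upper pair of groups, 7 days (2.16 ± 0.244 CPM) and 1.5 h (1.98 ± 0.336; exact permutation p = 0.31), and a lower pair, untreated (0.54 ± 0.36) and knockdown (0.349 ± 0.0662; exact permutation p = 0.365). FOSL1 was highest at 1.5 h (63.5 ± 4.7 CPM) and next at 7 days (52.3 ± 2.29), without overlap between these groups, while its untreated mean (41 ± 29.6) and the knockdown (29.9 ± 1.28) could not be separated (exact permutation p = 0.937). FOSL2 at 1.5 h (329 ± 7.43 CPM) and in untreated cells (319 ± 37) overlapped (exact permutation p = 0.698); 7 days (275 ± 10.2) and the knockdown (237 ± 7.66) followed. JUNB stood at 168 ± 14.7 CPM at 1.5 h, above 76.5 ± 13.1 in untreated cells, 65.3 ± 1.85 at 7 days and 60.2 ± 3.06 in the knockdown, where the last 3 overlapped with their neighbours. JUND stood at 111 ± 26.7 CPM at 1.5 h, overlapping with 81.3 ± 14.9 in untreated cells, above 63.2 ± 3.66 in the knockdown and 52.3 ± 1.65 at 7 days. In all, 42 such permutation tests were made (7 members, 6 pairs of groups), and their p values were not adjusted.

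Levels were scaled by the deposited gene lengths, which makes different genes roughly comparable. The length of FOS, 3238 bases, nearly spans its gene (3457 bases), so its RPKM may be too low if the transcript is shorter. The 7 members summed to 192 ± 29.8 RPKM in untreated cells and 293 ± 25.8 at 1.5 h (SD, n = 5). The sum was 173 ± 4.51 at 7 days and 150 ± 3.9 in the knockdown. The JUN members made up the larger part of this sum. They were at 120 ± 14.8 RPKM against 72 ± 19 for the FOS members in untreated cells and at 204 ± 24.7 against 88.7 ± 3.16 at 1.5 h. Untreated replicate 5 had a FOS sum of 105 RPKM, above the 84.4 to 93.3 RPKM at 1.5 h. The JUN to FOS ratio was 1.72 ± 0.389 in untreated cells and 2.3 ± 0.265 at 1.5 h. Untreated replicate 4 had a ratio of 2.37, within the 2.13 to 2.76 at 1.5 h. At 7 days this ratio was 1.44 ± 0.0363 and in the knockdown 1.7 ± 0.0726. JUNB went from 22 ± 1.19% of the sum in untreated cells to 31.7 ± 1.14% at 1.5 h and was back at 20.8 ± 0.217% at 7 days. FOSL2 went from 23.5 ± 3.59% to 15.8 ± 1.45% at 1.5 h, though its own level hardly differed. FOSL1 took 16 ± 0.316% at 7 days against 10.6 ± 0.428% in the knockdown and 7.54 to 9.57% in untreated replicates 1 to 4, with 20.3% in replicate 5. FOSB never exceeded 0.258% of the sum in any library. These shares are descriptions of mRNA and say nothing of protein or of dimers formed. As these are bulk samples, fewer cells with a transcript and less of it per cell cannot be told apart.

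**Figure D4:**
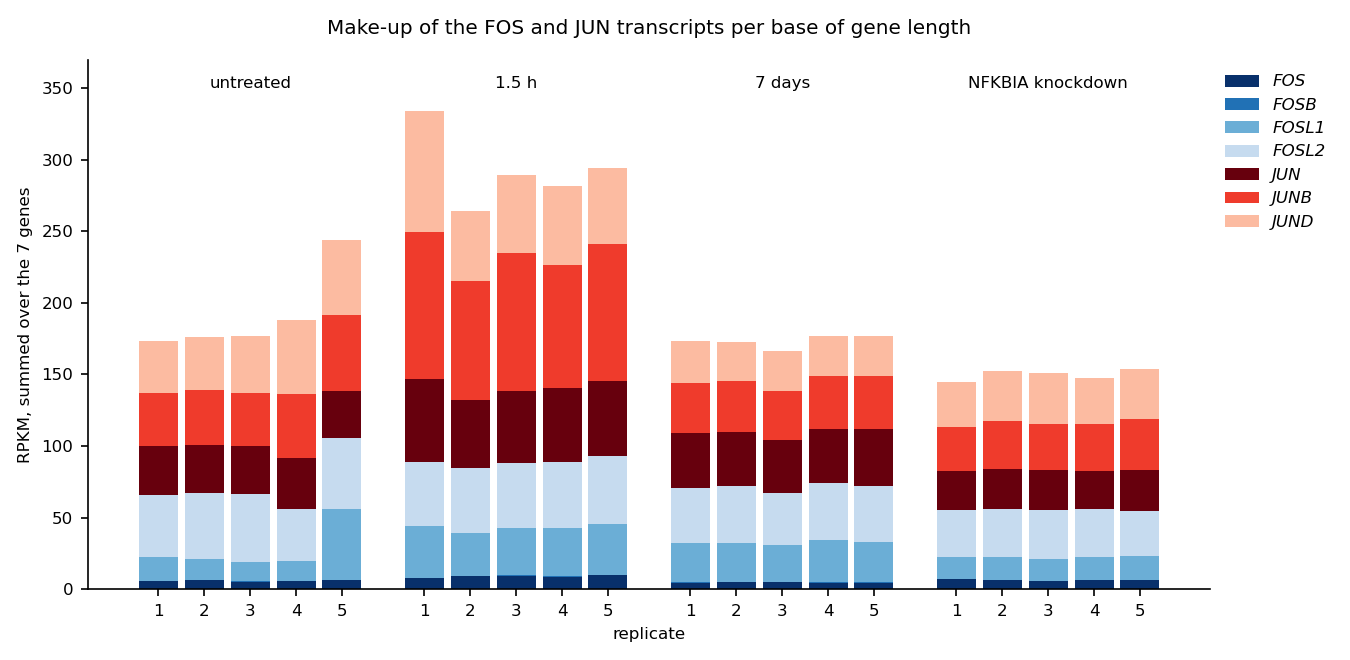
Length-scaled level (RPKM, y axis, from 0) stacked over the 7 genes for each of the 20 libraries, grouped by condition along the x axis. The sums are 264 to 334 at 1.5 h, above the 144 to 244 of the other libraries, with JUNB taking 30.5 to 33.3% at 1.5 h; FOSB is too low to be seen.

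Across the 20 libraries the members did not share a single pattern. Pearson correlations of log2 CPM were highest for JUN with JUNB (0.87), JUNB with JUND (0.86) and FOSB with FOSL1 (0.85), and lowest for FOS with FOSB (0.05) and FOSB with JUND (0.11). The libraries fall into 4 groups, so these values largely describe the group means. Those of FOSL1, here and below, also rest on untreated replicate 5. Its log2 CPM for FOSL1 was 6.551, against 4.656 to 4.968 in untreated replicates 1 to 4. The genes outside the family most like each member over the same 20 libraries were CCDC117 (0.968), PANK3 (0.956) and RIPK1 (0.952) for FOS, FBXW7 (0.964), ZNF79 (0.958) and TNPO1 (0.946) for FOSB, and KLF10 (0.945), ZNF267 (0.935) and MAK16 (0.928) for FOSL1. For FOSL2 they were AP1G1 (0.972), a gene without a symbol in the table (ENSG00000132142, 0.971) and COL5A1 (0.967). For JUN they were HBEGF (0.975), ATF3 (0.974) and IER3 (0.973), for JUNB KCTD11 (0.972), MEX3B (0.969) and IRF1 (0.961), and for JUND MAFA (0.967), TUSC1 (0.943) and MEX3D (0.94).

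Among 11 other bZIP genes whose proteins can pair or compete with FOS and JUN, 10 were tested. At 1.5 h, 4 were higher and none lower, against 2.08% and 1.57% of all genes tested. ATF3, a stress-induced partner of JUN, was at 14.3 to 19.4 CPM in untreated cells and at 99.8 to 111 CPM at 1.5 h, a log2 fold change of 2.60 ± 0.086 (adjusted p = 5.86e-15, edgeR), larger than that of any member. The small MAF genes MAFF (1.56 ± 0.094), MAFG (0.58 ± 0.09) and MAFK (0.58 ± 0.095) were higher as well. Without untreated replicate 5, the count of calls was 2, since MAFG and MAFK were then at 0.47 each. At 7 days 5 of the 10 were higher and 2 lower, against 16.7% and 14.4% of all genes tested, so that the count of lower genes was near the background. The values were BATF2 at 2 ± 0.13, MAFF at 1.11 ± 0.093, ATF3 at 0.93 ± 0.084, JDP2, a repressor that pairs with JUN, at -1.26 ± 0.11 and MAF at -0.54 ± 0.092. Without untreated replicate 5 these counts were 3 and 1, with MAFG (0.44), MAFK (0.40) and MAF (-0.43) no longer called. In the knockdown, where 7.53% of all genes tested were lower, 2 were lower and none higher: ATF3 (-0.62 ± 0.087) and JDP2 (-0.53 ± 0.11). Between 7 days and 1.5 h, 1 was higher and 2 lower, near the 16.8% and 12.6% of all genes tested, and ATF3 was at -1.67 ± 0.082.

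Of 15 genes of the MAP kinase cascades that feed into FOS and JUN, 0 were called at 1.5 h and 0 in the knockdown in edgeR. With 2.08% and 1.57% of all genes tested called at 1.5 h, and 5.18% and 7.53% in the knockdown, such counts say little about a list of this size. At an unadjusted p under 0.05, 7 passed at 1.5 h and 11 in the knockdown, against 33.4% and 48.6% of all genes tested, and DESeq2 called 0 in both. At 7 days MAPK10, which encodes the kinase JNK3, was higher (1.39 ± 0.17, from 0.586 ± 0.105 to 1.56 ± 0.146 CPM) and MAP3K4 lower (-0.68 ± 0.04). Of 10 genes for factors that act on the FOS and JUN promoters, MKL1, a cofactor of SRF, was lower at 1.5 h (-0.61 ± 0.13), and none was called higher in any of the comparisons. At 7 days SRF (-0.70 ± 0.12), MKL1 (-0.51 ± 0.13) and MEF2C (-1.09 ± 0.18) were lower. In the knockdown the same 3 genes (-0.51 ± 0.12, -0.56 ± 0.13 and -1.10 ± 0.18) and ELK4 (-0.51 ± 0.11) were lower. SRF ranged from 87.8 to 162 CPM in untreated cells. Without untreated replicate 5, MKL1 was no longer called at 1.5 h (-0.39), at 7 days (-0.29) or in the knockdown (-0.34), and neither were SRF (-0.31) and ELK4 (-0.37) in the knockdown, which left 0, 2 and 1 genes of this list called lower. Of 10 genes for mRNA decay and protein turnover of FOS and JUN, FBXW7, the ubiquitin ligase subunit that targets JUN, was higher at 1.5 h (1.01 ± 0.058) and at 7 days (0.92 ± 0.058), and ZFP36L2, an mRNA decay factor, was higher at 1.5 h (0.60 ± 0.098) but lower at 7 days (-0.75 ± 0.099) and in the knockdown (-0.70 ± 0.099). HNRNPD, which encodes the AU-rich element binding protein AUF1, was lower at 7 days (-1.07 ± 0.065). UBR1 (0.55 ± 0.069) was higher in the knockdown. ZFP36L1 was called lower there (-0.75 ± 0.27), but not without untreated replicate 5 (-0.17). Without that library ZFP36, another mRNA decay factor, became a call at 1.5 h (from 0.01 to 0.58), as did DET1 at 7 days (-0.52). Between 7 days and 1.5 h, 1 of the MAP kinase cascade genes was higher and 1 lower, while 4 of the promoter factors and 2 of the turnover genes were lower. Of all genes tested, 16.8% were higher and 12.6% lower in that comparison, and 16.7% and 14.4% at 7 days against untreated cells, so that counts of 1 or 2 in these lists were near the background.

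**Figure D5:**
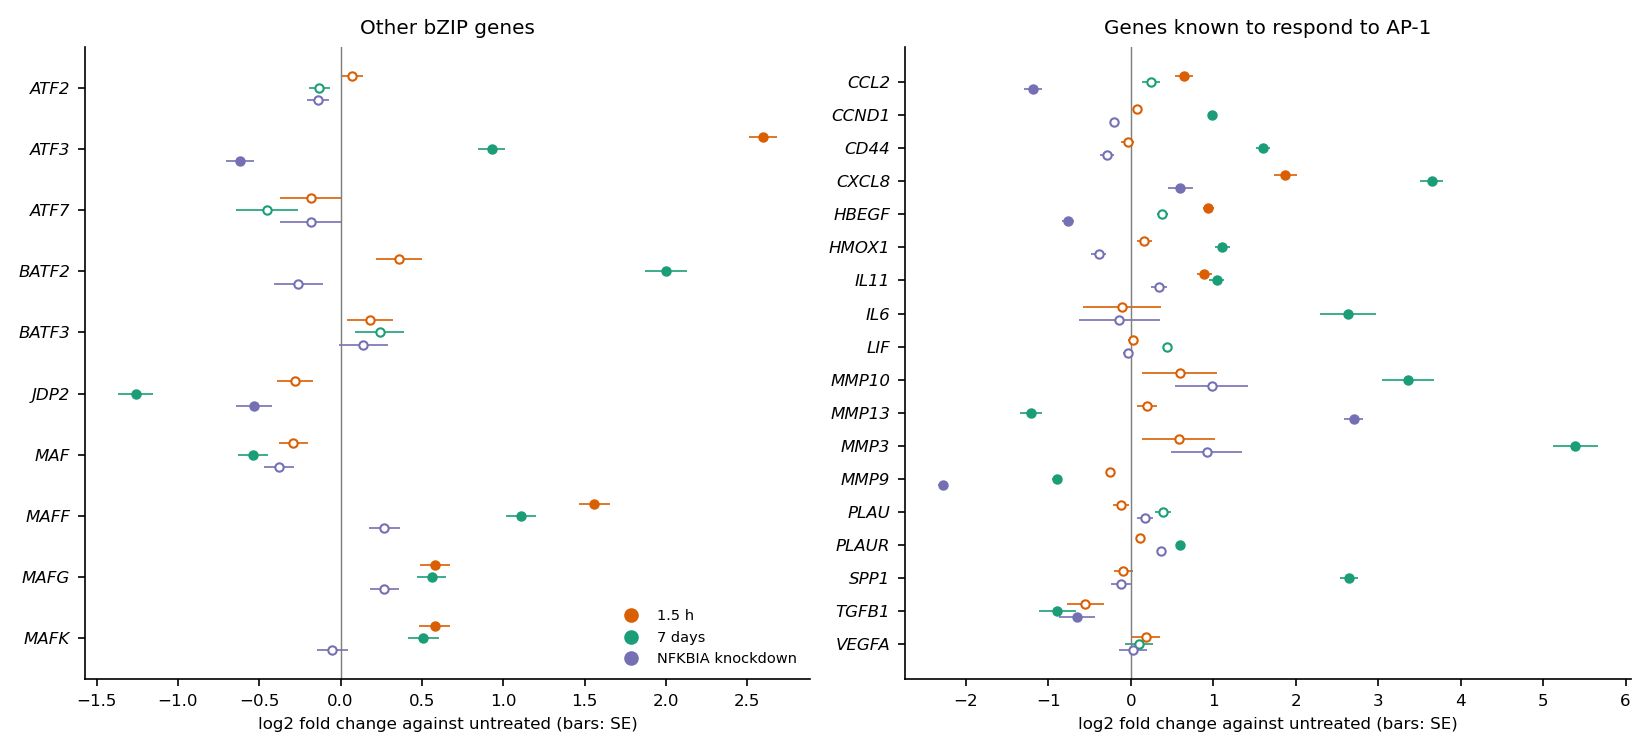
Log2 fold changes against untreated cells (x axis, bars are SE) of 10 other bZIP genes (left) and 18 genes known to respond to AP-1 (right) at 1.5 h, at 7 days and in the knockdown, with filled symbols for calls. ATF3 is at 2.60 at 1.5 h and 0.93 at 7 days, while CXCL8 is at 1.87 and 3.65; MMP1, with 3 counts or fewer in each untreated library, is not drawn.

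All 19 genes listed as known to respond to AP-1 were tested. At 1.5 h, 4 were higher and none lower, against 2.08% and 1.57% of all genes tested: the chemokine genes CXCL8 (1.87 ± 0.14) and CCL2 (0.64 ± 0.11), the growth factor gene HBEGF (0.94 ± 0.069) and the cytokine gene IL11 (0.89 ± 0.093). At 7 days 11 of the 19 were higher and 3 lower, against 16.7% and 14.4% of all genes tested. The count of lower genes was thus near the background. The median log2 fold change of the 19 was 0.98, against 0.01 over all genes tested. MMP1 and MMP10, which are among the 19, reached at most 3 and 9 counts in any library outside the 7 days group and 37 and 43 within it. They thus passed the count filter through the 7 days libraries, which favours a call of higher there. MMP3, a matrix metalloproteinase gene, went from 0.196 ± 0.156 to 8.75 ± 2.08 CPM (log2 fold change 5.39 ± 0.27). Against the 1.5 h libraries, 10 of the 19 were higher and 3 lower at 7 days, against 16.8% and 12.6% of all genes tested. The limit given for MMP1 and MMP10, at most 2 and 8 counts at 1.5 h, applies here too. CXCL8 was at 3.65 ± 0.14 against untreated cells, MMP10 at 3.36 ± 0.31, SPP1 at 2.64 ± 0.11, IL6 at 2.63 ± 0.34 and CD44 at 1.60 ± 0.085. The level of MMP1 at 7 days was at least 8.04-fold higher than a floor of 3 counts per untreated library, a count that none of these libraries exceeded. MMP13 (-1.21 ± 0.13), MMP9 (-0.90 ± 0.057) and TGFB1 (-0.89 ± 0.22) were lower, the last not without untreated replicate 5 (-0.44). HBEGF, whose libraries resembled those of JUN most, was at 0.38 ± 0.069 at 7 days and not called. In the knockdown, where 5.18% of all genes tested were higher and 7.53% lower, 2 of the 19 were higher, MMP13 (2.70 ± 0.12) and CXCL8 (0.60 ± 0.15), and 4 were lower, namely MMP9 (-2.28 ± 0.06), CCL2 (-1.19 ± 0.11), HBEGF (-0.76 ± 0.071) and TGFB1 (-0.65 ± 0.22). Without untreated replicate 5, 4 genes of this list were higher at 1.5 h and none lower, 11 were higher and 2 lower at 7 days, and 1 was higher and 4 lower in the knockdown. The knockdown genes were not the same, since TGFB1 (-0.19) and CXCL8 (0.48) were no longer called and HMOX1 (-0.51) became a call. Many of these genes also respond to NF-κB or other factors, and their levels were not tested for dependence on the FOS and JUN genes.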

How the data were processed

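RNA of U2-OS cells had been extracted with Trizol and sequenced on an Illumina HiSeq instrument per the labels, with stranded mRNA libraries per the methods. The authors deposited raw read counts per gene without normalization, as whole numbers for 20314 genes in 20 libraries, with a gene length for each. The submitters' processing notes name bcl2fastq, Trimmomatic, STAR 2.4.2a and hg19; the counter, the annotation and the strand setting are not given in the sources used here. Reads of overlapping genes may therefore be shared between them.

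The test was the quasi-likelihood F test of edgeR 4.0.16 (R 4.3.3). After filterByExpr at a minimum count of 10, which kept 14992 genes, and TMM scaling, all 20 libraries entered 1 fit whose design held the 4 groups and no covariate. SE came from the F statistic, and Benjamini-Hochberg adjustment ran over every gene kept. Calls required an adjusted p under 0.05 and a log2 fold change above 0.5 in size. CPM used TMM-scaled library sizes and log2 CPM a prior count of 2; RPKM used the deposited lengths. The steps were tested on simulated data. With 22535659 to 40390961 counts per library, FOSB (8 to 90 counts) was the only member with large counting error. Replicates were taken as separate samples as labelled; the study calls those of the untreated and irradiated groups biological replicates, and the sources used here do not say for the knockdown, where p values may measure technical spread. No pair of libraries in a group agreed within sampling noise (lowest chi-square per degree of freedom 1.75).

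The members and the gene lists were chosen with earlier results of these data known; 3 genes of these lists are not reported here and enter no count. Named were all 7 members, genes called in the lists, the 3 genes most correlated with each member, NFKBIA and ATF3. Also named were HOOK2, which overlaps JUNB, the osteoblast markers that made up most of their sum or were too low to test, and genes that became calls without untreated replicate 5. Alternatives covered scaling, filter, tool (DESeq2), thresholds, prior count, lane, replicate number and leaving out libraries; the sets without untreated replicates 4 and 5, and without untreated replicate 5 and 1.5 h replicate 1, were chosen after seeing the data. Promoters came from RefSeq (GRCh38.p14), gene overlaps from GENCODE 29. Figures were drawn with matplotlib.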

Additional observations from a re-analysis of the deposited data

Results flagged for a closer look

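In 28 sets of 5 libraries (7 members, 4 groups), 2 libraries lay farther from the rest than Dixon's 95% limit allows; chance would place about 1 in 20 sets there. Untreated replicate 5 was at 93.7 CPM for FOSL1, with the next library at 31.2 CPM. The first 1.5 h replicate was at 158 CPM for JUND, with the next library at 104 CPM. Both were sequenced in lane 3, and the part of the lane was not tested.

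In the direct test of 7 days against 1.5 h, 5 members passed the adjusted p and 3 of them also the limit of 0.5 on the log2 fold change (edgeR). The difference was -0.95 on the log2 scale for FOS, -1.37 for JUNB and -1.08 for JUND. FOS, JUNB and JUND were thus each lower at 7 days than at 1.5 h, in all 5 libraries against all 5.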

How the results depend on the processing

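Over the 4 comparisons, 934 values of the 7 members were recomputed. Of these, 888 kept their direction and their side of the threshold, 7 were no longer called, 30 became calls and 9 changed sign. By adjusted p alone and above a log2 fold change of 1 the fit was the same and only the threshold moved. Leaving out a library of another group kept both compared groups complete, and lane 3 or lane 4 alone repeats the lane fit. The 888 are therefore no measure of how firm the values are. Of the members called, 4 at 1.5 h (all higher) became 3 higher and 1 lower (FOSL1) with lane as a factor and 2 with a log2 fold change above 1 required. The 2 called at 7 days became 1 with that limit, 1 with at least 10 counts required in every library (FOSB then drops out), 5 with lane as a factor (1 higher, and 4 lower including FOSL1) and 6 by adjusted p alone. The 0 called in the knockdown became 3 with lane as a factor (FOSL1 at -1.79, JUNB at -0.76 and FOSL2 at -0.63, all lower) and 5 by adjusted p alone, and the 3 called between 7 days and 1.5 h became 5 by adjusted p alone. Leaving out 1 library gave 0 to 1 calls in the knockdown (1 without untreated replicate 4). The other pathway genes tested were 10 bZIP genes, 15 MAP kinase cascade genes, 10 promoter factors, 10 turnover genes and 19 AP-1 targets. Of these, 11, 29, 15 and 24 were called at 1.5 h, at 7 days, in the knockdown and between the time points. Over all 14992 genes tested the calls were 548, 4657, 1906 and 4398. With lane as a factor the first 3 pathway counts became 30, 48 and 30. Calls over all genes also rose then at 1.5 h and in the knockdown, as given below. By adjusted p alone the 4 pathway counts became 19, 47, 35 and 41, and above a log2 fold change of 1 they became 4, 16, 4 and 13. The knockdown count was 8 without untreated replicates 4 and 5.

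FOSL1 changed sign with lane as a factor at 1.5 h (-0.59) and at 7 days (-0.93). The 1.5 h value in lane 3 alone is the same estimate and adds nothing to it. In the knockdown FOSL1 changed sign without untreated replicate 5 and 1.5 h replicate 1 (0.11) and without untreated replicates 4 and 5 (0.08). Leaving out 1 library gave -0.58 to 0.09 there. FOSL2 at 1.5 h was at -0.12 with lane as a factor, again the same estimate as in lane 3 alone, and at -0.03 to 0.08 with 1 library left out. By its construction the lane fit reaches untreated cells through untreated replicate 5 alone, the 7 days group through the 1.5 h libraries of lanes 3 and 4, and the knockdown through its replicate 1 alone; other causes were not tested. Over all genes, the calls at 1.5 h went from 548 to 3820 and in the knockdown from 1906 to 4088 with lane as a factor. By adjusted p alone the 548, 4657, 1906 and 4398 calls became 3191, 9620, 6078 and 9131, and above a log2 fold change of 1 they became 90, 1826, 524 and 1626.

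Same-numbered libraries did not deviate together (correlations from -0.25 to 0.12, over 0.1 in 2 of 30 pairs, 4 of 30 best with their own number), so the numbers do not pair the samples. With the replicate block, FOSL1 at 1.5 h was called (0.77, adjusted p = 0.0211, edgeR), and no other member's call changed; FOS in the knockdown went from adjusted p = 0.0435 to 0.0626 (edgeR). Depth limits FOSB, with 8 to 24 counts in untreated libraries.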
